A study of Mus musculus with 8 samples.

Results

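The comparison sets 2 libraries of SmoM2 nephron progenitors against 2 libraries of Smo wild-type (WT) nephron progenitors, which are 4 of the 8 libraries of the series. It covers all expressed genes, and 13459 of the 24539 genes listed had enough counts to be tested. All cells came from mouse kidneys at E18.5 and were sorted by flow cytometry as mesenchymal nephron progenitors on Six2GFPcre, a transgene carried by every group that makes a fusion of GFP and Cre recombinase under Six2 control. WT embryos were Smo +/+ ; Six2GFPcre. SmoM2 embryos were Rosa26 SmoM2/+ ; Smo +/+ ; Six2GFPcre, so they kept both normal Smo alleles and gained an active form of Smo wherever Cre had acted. The other groups, Smo KO (Smo c/c ; Six2GFPcre) and Smo Het (Smo c/+ ; Six2GFPcre), also have 2 libraries each and entered the estimate of the spread. According to the design text, the study varied the dose of Smo in these progenitors. The labels do not say whether the libraries of a group came from separate embryos or from pools, so p-values measure the spread between these libraries. The 2 libraries of WT, and those of SmoM2, had opposite sex patterns (below), so they were not repeats of 1 sample, and their spread includes sex. The 2 KO libraries shared a sex pattern, as did the 2 Het libraries, so their part of the spread may be technical.

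Nephron progenitors are the mesenchymal cells around the tips of the branching collecting duct that both renew themselves and form the nephrons. In Hedgehog signalling, a secreted ligand binds the receptor Ptch1 and lifts its block on the membrane protein Smo, which then acts at the primary cilium so that Gli transcription factors activate target genes. Ptch1, Hhip and Gli1 are themselves widely used target genes, and Ptch1 and Hhip act back on the pathway as brakes. SmoM2 carries an amino acid change that keeps Smo active without release of that block, so the pathway is switched on inside the cells that make it.

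The SmoM2 change is described at a tryptophan of the last transmembrane segment, and the normal mouse coding sequence around that codon is shown because the gene counts cannot tell the transgene's transcripts from those of the normal alleles. It is codon 539 of the 793 coding codons, in exon 9 of 12 of Smo (GENCODE M21, GRCm38, chr6:29758442-29758504, plus strand), with the tryptophan codon in capitals.
Smo codon 539: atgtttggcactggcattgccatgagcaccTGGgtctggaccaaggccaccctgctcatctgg

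Smo itself was measured first. Its level was 363 and 375 CPM in WT replicates 1 and 2 and 605 and 629 CPM in SmoM2 replicates 1 and 2. CPM is a gene's count per 1000000 counts of the scaled library size, and pairs of values are given below in the order of the replicates. The groups did not overlap, and SmoM2 was the higher of them. The log2 difference, SmoM2 minus WT, was 0.74 (95% interval 0.38 to 1.10), with an edgeR adjusted p of 0.132, which did not pass the threshold of 0.05. Among 11 alternative settings, apart from fits without 1 library, 4 called Smo, with DESeq2 on 8 and on 4 libraries among them. It was not called without the 2 Het libraries (edgeR adjusted p = 0.0544) or with the 4 compared libraries alone (edgeR adjusted p = 0.0892). With limma voom its adjusted p was 0.0589. The KO libraries had 13.1 and 11.1 CPM of Smo and the Het libraries 14.4 and 23.9 CPM, so the Het level went against a label that gives 1 normal allele.

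The 4 libraries compared were of similar depth and composition. Listed counts summed to 10305398 and 9396539 in WT and to 9929956 and 9037109 in SmoM2, and 3 counts, taken as the floor of detection, were worth between 0.280 and 0.347 CPM. Replicates correlated across genes with r = 0.980 in WT and 0.983 in SmoM2, and libraries of different groups with r between 0.972 and 0.984, a description over genes that are not independent. In WT and in SmoM2, replicate 1 had Y-linked counts and few Xist counts, and replicate 2 had the reverse, so male and female patterns were balanced between these groups. Both KO libraries had the male pattern and both Het libraries the female one. Listed counts summed to 4422305 and 4442697 in KO and to 7577590 and 5929770 in Het. KO and Het levels set beside WT and SmoM2 in this text therefore differ in sex pattern and depth as well. Six2, the defining transcription factor of the sorted population, was at 1333 and 1132 CPM in WT and 1264 and 1264 CPM in SmoM2, so the gene that defines the labelled cells was abundant in all 4 libraries.

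Few genes differed. Of the 13459 tested genes, 30 passed an edgeR adjusted p of 0.05, which is 0.223% of those tested. Of these 21 were higher in SmoM2 (0.156%) and 9 were lower (0.0669%). The WT and SmoM2 libraries did not overlap in any of the 30, and 25 of them differed at least 2-fold. Of all tested genes 35.8% had no overlap, with SmoM2 above WT in 17.4% and below WT in 18.4%, so a lack of overlap by itself marks no gene out. Foxf1, Tshz3 and Kcnj15 passed the filter on low counts only through the SmoM2 libraries, as did 198 of all tested genes, so these 3 could be tested only because they were high in SmoM2. Exons of 16 of the 30 genes overlap another gene on the opposite strand, among them Hhip, Foxf1, Pcdh8, Itga4 (with Cerkl), Rgma (with A730056A06Rik) and Crtac1. The strand setting of the counting is not stated, so reads of such pairs cannot be told apart. Together the 30 genes accounted for 913 CPM in WT and 1701 CPM in SmoM2. Unadjusted p-values under 0.05 were found for 1036 genes, 525 higher and 511 lower, which is 7.70% of the genes tested. Counts of list members with such a p-value, given below, are to be read against this share. For the lists, calls by edgeR are those of this fit unless another is named, and DESeq2 stands for its fit on 8 libraries.

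**Figure D1:**
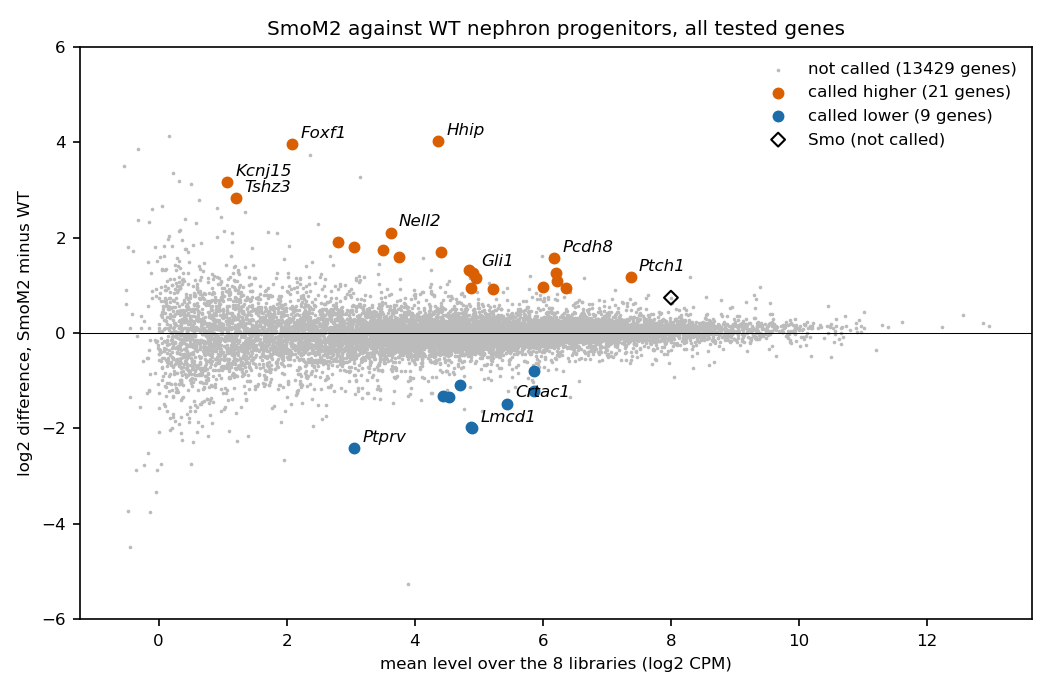
Each point is 1 tested gene, with its mean level over the 8 libraries in log2 CPM on the horizontal axis and its log2 difference, SmoM2 minus WT, on the vertical axis. The 21 genes called higher (orange) reach 4.03 in Hhip, the 9 called lower (blue) reach -2.42 in Ptprv, and Smo (open diamond) is not called.

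The number of calls depended on how the spread was estimated. With the 4 WT and SmoM2 libraries alone edgeR called 8 genes, all among the 30, namely Hhip, Ptch1, Gli1, Foxf1, Pcdh8, Nell2 and Pltp as higher and Crtac1 as lower. With 1 library left out the count ranged from 8 (without WT replicate 1, or without SmoM2 replicate 1) to 81 (without WT replicate 2), with 9 without either KO library and 10 without SmoM2 replicate 2. It was 28 with limma voom, 54 with a replicate block on 8 libraries and 310 with a replicate block on 4 libraries. With DESeq2 on 8 and on 4 libraries it was 82 and 87. Without the filter on low counts it was 356 of 18070 tested genes, while limma voom and DESeq2 on 8 libraries tested 13459. Counts of list members called in these fits, given below, are to be read against these totals. With library totals implied by the deposited RPKM values the calls were split into 16 higher and 11 lower. Across 19 alternative fits, Hhip, Ptch1 and Pcdh8 were called in all 19, Foxf1, Nell2 and Crtac1 in 17, and Sema6a in 16. Tspan18, Syt11 and Sox9 were called in 7, 8 and 8 of them and in none of the 8 fits without 1 library.

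**Figure D2:**
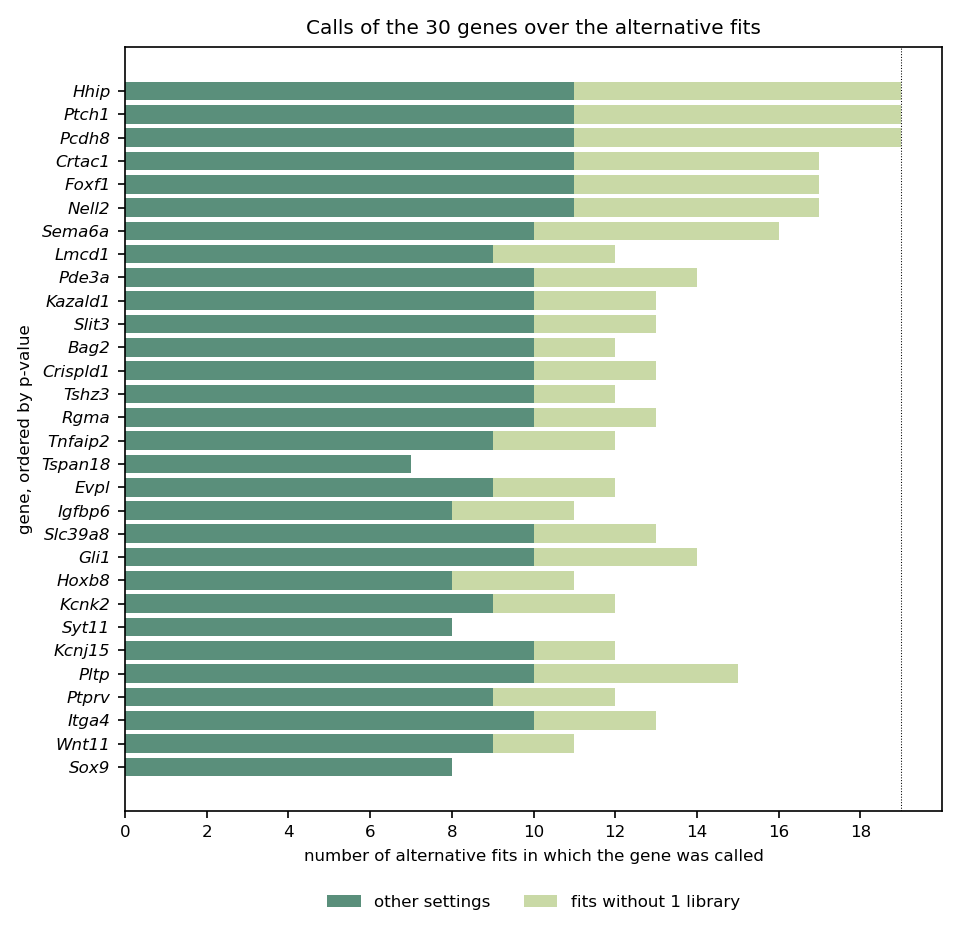
Bars give the number of alternative fits, on the horizontal axis, in which each of the 30 genes was called, divided into 11 other settings (dark) and 8 fits without 1 library (light), with genes ordered by p-value from the top. The dotted line marks all 19 fits, which Hhip, Ptch1 and Pcdh8 reach.

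Canonical Hedgehog target genes rose in SmoM2 progenitors. Of 7 target genes tested, 4 were called higher and none lower, and the SmoM2 libraries lay above the WT libraries in all 7, as they did in 17.4% of all tested genes. Foxf1 and Foxf2 were tested only because they were high in SmoM2, so their place above WT was set by the filter on low counts and adds nothing to these counts. The median log2 difference over all tested genes was 0.00, and the 4 called target genes differed by 1.18 to 4.03. Without WT replicate 1, or without SmoM2 replicate 1, 2 of the 7 were called. DESeq2 on 8 libraries called 5 of the 7, and edgeR without the filter on low counts called 6.

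Hhip, a membrane protein that binds and sequesters Hedgehog ligands (chr8:79965850-80058060), had the smallest p of all genes. It was at 3.17 and 5.45 CPM in WT and at 62.4 and 77.8 CPM in SmoM2. SmoM2 replicates were thus far above both WT replicates, with a fold difference of 16.4 (log2 4.03, SE 0.27, edgeR adjusted p = 8.51e-05). In the KO libraries Hhip was at 1.11 and 2.18 CPM, and in the Het libraries at 0.401 and 0.340 CPM.

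Ptch1, the ligand receptor that restrains Smo (chr13:63508328-63573460), was already well expressed in WT, at 155 and 168 CPM. It reached 377 and 355 CPM in SmoM2, a fold difference of 2.27 (log2 1.18, SE 0.11, edgeR adjusted p = 0.00219). Per length, in the authors' RPKM, mean Ptch1 was 17.2 in WT and 38.1 in SmoM2, while mean Hhip was 0.386 and 6.16. Ptch1 therefore remained the more abundant of these negative regulators in SmoM2 although Hhip had the larger fold difference.

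Gli1, the Gli factor whose own transcription depends on the pathway (chr10:127329882-127341579), was at 33.6 and 28.3 CPM in WT and 75.9 and 73.5 CPM in SmoM2. The log2 difference was 1.27 (SE 0.21, edgeR adjusted p = 0.0427), and the groups were well apart. It did not pass in the fits that left out any 1 of the 4 WT or SmoM2 libraries (edgeR adjusted p between 0.0635 and 0.199) or with library totals implied by RPKM (0.0559). Exons of Arhgap9 overlap Gli1 on the opposite strand, and Arhgap9 was at 1.96 and 2.40 CPM in WT and 2.97 and 3.35 CPM in SmoM2.

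Foxf1, a forkhead factor known as a Hedgehog target in the mesenchyme of gut and lung (chr8:121084386-121088154), was near the floor in WT, with 8 counts in each library, or 0.746 and 0.871 CPM. It was at 14.5 and 11.1 CPM in SmoM2 (log2 3.97, SE 0.44, edgeR adjusted p = 0.00784). The KO libraries had no Foxf1 count, and the Het libraries had 0.267 CPM and none. Foxf2, its paralogue, had 1 count in each WT library and 19 and 12 counts in the SmoM2 libraries, and it did not pass the test (edgeR adjusted p = 0.138). Foxl1, another forkhead target, was at 4.01 and 4.57 CPM in WT and 7.06 and 7.28 CPM in SmoM2, also without passing (edgeR adjusted p = 0.639). Foxf1 was thus the called member of these 3 forkhead genes.

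**Figure D3:**
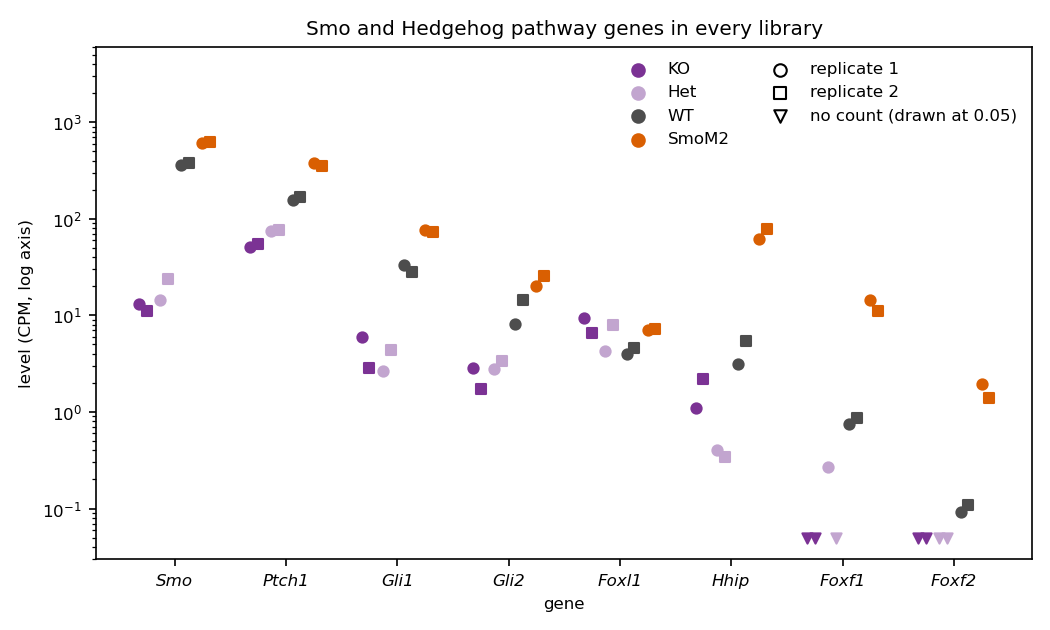
Level in CPM (log axis) of Smo and 7 Hedgehog pathway genes in each of the 8 libraries, with colours for the groups and shapes for the replicates, and triangles at 0.05 for libraries without a count. SmoM2 points lie above WT points for each gene, by the largest ratios in Hhip, Foxf1 and Foxf2.

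The promoter windows of Hhip and Ptch1 are shown because these targets had the smallest p-values. Each window runs from 250 bases before to 50 bases after a RefSeq start (GRCm38.p6, minus strand for both), and capitals mark a match to CCACCC, the core of the Gli binding site, on either strand. The Hhip window lies at chr8:80057959-80058258 and holds 1 core match, and the Ptch1 window lies at chr13:63565686-63565985 and holds none.
Hhip promoter: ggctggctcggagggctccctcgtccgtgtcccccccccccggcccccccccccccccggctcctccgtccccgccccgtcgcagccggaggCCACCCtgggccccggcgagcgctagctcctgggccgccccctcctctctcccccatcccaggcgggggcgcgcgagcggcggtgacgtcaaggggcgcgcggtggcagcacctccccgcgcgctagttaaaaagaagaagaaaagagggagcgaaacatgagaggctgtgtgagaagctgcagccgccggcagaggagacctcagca
Ptch1 promoter: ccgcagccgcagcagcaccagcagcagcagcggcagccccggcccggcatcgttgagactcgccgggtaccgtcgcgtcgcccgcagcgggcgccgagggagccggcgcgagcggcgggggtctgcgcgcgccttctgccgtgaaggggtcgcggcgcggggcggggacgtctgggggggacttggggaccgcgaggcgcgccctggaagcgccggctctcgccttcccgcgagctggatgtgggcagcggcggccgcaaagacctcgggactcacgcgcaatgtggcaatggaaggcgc
Both windows were rich in G and C, at 73.7% and 76.3% against a median of 52.7% over all windows, and held 30 and 47 CpG against a median of 7. The full site GACCACCCA was found in 83 of 32851 windows of all genes (0.253%). It was in none of the 15 windows of the genes called higher, of which 13 of 21 had a window, and in none of the 11 windows of the genes called lower, of which 6 of 9 had a window. The core was in 7 of those 15 windows (46.7%), in 7 of those 11 (63.6%) and in 31.5% of all windows. A match, or the lack of one, describes the letters in these windows and no more.

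Upstream and beside these targets, most of the Hedgehog machinery was not called. No ligand could be tested: Shh had at most 2 counts, Ihh at most 6 and Dhh at most 1 in any of the 4 libraries. Of 4 tested genes for ligand processing and release (Disp1, Hhat, Scube1, Scube3) none was called by edgeR, DESeq2 or limma voom and 0 had an unadjusted p under 0.05. Their log2 differences were between -0.50 and -0.09, and edgeR without the filter on low counts called Scube3. Among the 7 receptors and co-receptors, Ptch1 and Hhip were called by edgeR and by limma voom, while DESeq2 on 8 libraries and edgeR without the filter on low counts each called 4 of the 7, Smo among them. The ligand-binding co-receptors Boc, Gas1 and Cdon differed by 0.02, -0.12 and -0.20. Gas1 was abundant in every library, at 1167 and 1040 CPM in WT and 990.0 and 1043 CPM in SmoM2, and its 95% interval ran from -0.39 to 0.16.

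Among 22 Gli factors and their regulators, Gli1 was the called gene, and 20 of the 22 had a 95% interval of the log2 difference within -1 to 1. Gli2 was called as well by edgeR without the filter on low counts. Gli2, the main activator among Gli factors, was at 8.20 and 14.3 CPM in WT and 20.04 and 25.8 CPM in SmoM2 (log2 1.03, edgeR adjusted p = 0.256). Gli3, the main repressor, overlapped between groups, at 90.5 and 97.9 CPM against 69.7 and 100.1 CPM. Sufu, which holds Gli proteins in the cytoplasm, differed by 0.32 (interval 0.06 to 0.58, edgeR adjusted p = 0.506) and Kif7, a ciliary kinesin of the pathway, by 0.15 (interval -0.20 to 0.50). Of 19 genes for the primary cilium, the organelle in which Smo acts, none was called by edgeR, DESeq2 or limma voom and 3 had an unadjusted p under 0.05. Of the 19, 17 had an interval within -1 to 1, and the median was -0.15.

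Beyond the pathway, the other genes called higher are described by what their products are, a grouping made after their values were seen. Several encode transcription factors. Tshz3, a zinc-finger factor needed for smooth muscle of the ureter, was at 0.932 and 0.545 CPM in WT and 4.50 and 6.36 CPM in SmoM2 (log2 2.83, SE 0.45, edgeR adjusted p = 0.0423). Sox9, a factor of several kidney lineages, was at 22.7 and 22.5 CPM in WT and 42.5 and 57.7 CPM in SmoM2 (log2 1.15, SE 0.20, edgeR adjusted p = 0.0452). Hoxb8, a homeobox factor of axial position, was at 45.6 and 41.6 CPM in WT and 111 and 74.1 CPM in SmoM2 (log2 1.08, edgeR adjusted p = 0.0427). The KO libraries had 77.1 and 92.5 CPM of Hoxb8 and the Het libraries 75.0 and 82.0 CPM, so WT was the lowest of the 4 groups in it. Both SmoM2 replicates were above both WT replicates in Sox9 and Hoxb8, as in 17.4% of all tested genes. Tshz3 was tested only because it was high in SmoM2, so its place above WT was set by the filter on low counts.

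Tshz3 belongs to a list of 13 genes of ureteral mesenchyme and smooth muscle, of which 10 were tested and Tshz3 was the called member. Of the 10, 4 had an unadjusted p under 0.05, Tshz3 among them, against 7.70% of all tested genes. In both SmoM2 libraries 3 of the 10 were higher and 4 lower than in both WT libraries, against 17.4% and 18.4% of all tested genes. Tshz3 is among the 3 higher genes and was tested only because it was high in SmoM2. The median log2 difference of the 10 was -0.37. Des, which encodes the muscle filament desmin, was at 225 and 288 CPM in WT and 304 and 314 CPM in SmoM2 (log2 0.27, edgeR adjusted p = 0.819). Bmp4, a BMP ligand of the mesenchyme around the ureter, was at 24.1 and 14.7 CPM in WT and 33.3 and 25.3 CPM in SmoM2 (log2 0.59, edgeR adjusted p = 0.572). The smooth muscle genes Acta2 and Tagln had lower values in SmoM2, with log2 differences of -0.99 and -1.17 that did not pass (edgeR adjusted p = 0.571 and 0.366). Without the filter on low counts edgeR called 4 of the 13, Tshz3, Tagln, Bmp4 and Acta2. Tbx18, a defining factor of ureteral mesenchyme, had 3 and 4 counts in WT and 1 and 0 counts in SmoM2. Its counts, and those of Myocd and Cnn1, were too low to be tested.

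Secreted and surface signalling proteins made up a further share of the genes called higher. Nell2, a secreted ligand of a Robo receptor, was at 7.74 and 7.30 CPM in WT and 37.9 and 26.9 CPM in SmoM2 (log2 2.11, SE 0.27, edgeR adjusted p = 0.0125). Slit3, a secreted ligand of Robo receptors, was at 19.3 and 30.8 CPM in WT and 61.1 and 64.4 CPM in SmoM2 (log2 1.33, SE 0.20, edgeR adjusted p = 0.0350). Sema6a, a transmembrane semaphorin, was at 8.95 and 8.06 CPM in WT and 28.5 and 23.0 CPM in SmoM2 (log2 1.60, edgeR adjusted p = 0.0154). All 3 are known as guidance cues for growing axons. Rgma, a membrane-anchored guidance molecule that also binds BMPs, was at 49.4 and 44.8 CPM in WT and 106 and 77.5 CPM in SmoM2 (edgeR adjusted p = 0.0423). Robo2, the Slit receptor of nephron progenitors, was at 450 and 519 CPM in WT and 641 and 597 CPM in SmoM2, and did not pass (log2 0.35, edgeR adjusted p = 0.619).

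Wnt11, a Wnt ligand best known from the tips of the collecting duct, was at 9.79 and 7.52 CPM in WT and 24.1 and 34.2 CPM in SmoM2 (log2 1.75, SE 0.30, edgeR adjusted p = 0.0430). It was the called member of 23 tested Wnt genes, and edgeR without the filter on low counts also called Wnt4. Of the 23, 4 had an unadjusted p under 0.05, Wnt11 among them, against 7.70% of all tested genes. Wnt11 is also a collecting duct marker, and the summed level of 12 such markers was 22.4 and 20.04 CPM in WT and 35.1 and 48.5 CPM in SmoM2. Without Wnt11 the other 11 summed to 12.6 and 12.5 CPM in WT and to 10.9 and 14.3 CPM in SmoM2, so the difference in the sum was that of Wnt11. Of these, Calb1, Gata3, Aqp2, Wnt9b and Tfap2b were at or near 0, with at most 5 counts in WT and at most 1 count in SmoM2. Krt7 had 8 and 5 counts in WT and 0 and 1 in SmoM2, and Elf5 had 5 and 5 and 2 and 2. The keratin genes Krt8, Krt18 and Krt19 could be tested and were not called, with log2 differences of 0.08, 0.30 and 0.41. Krt18 was at 5.78 and 4.36 CPM in WT and 5.52 and 7.05 CPM in SmoM2. Ret, a receptor of the duct tip, was at 1.96 and 1.31 CPM in WT and 1.53 and 1.27 CPM in SmoM2.

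Genes for adhesion and for a further secreted protein were also called. Pcdh8, a protocadherin (chr14:79766772-79771312), was at 35.9 and 49.1 CPM in WT and 117 and 136 CPM in SmoM2 (log2 1.57, SE 0.18, edgeR adjusted p = 0.00784). It was not low in the other groups, at 41.0 and 57.5 CPM in the KO and 69.5 and 70.7 CPM in the Het libraries. Itga4, an integrin subunit that binds fibronectin and VCAM1, was at 2.98 and 5.55 CPM in WT and 17.2 and 14.6 CPM in SmoM2 (edgeR adjusted p = 0.0427). Crispld1, a secreted protein, was at 82.5 and 112 CPM in WT and 182 and 194 CPM in SmoM2 (log2 0.95, edgeR adjusted p = 0.0423). Gm16070, which overlaps Crispld1 on the opposite strand, was at 7.18 and 10.5 CPM in WT and 18.3 and 18.8 CPM in SmoM2.

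The remaining risers encode enzymes, transporters, channels and intracellular proteins. Pltp, which transfers phospholipids between lipoproteins, was at 68.3 and 96.0 CPM in WT and 196 and 197 CPM in SmoM2 (log2 1.26, SE 0.21, edgeR adjusted p = 0.0427). It was at most 6.64 CPM in the KO and Het libraries. Ctsa, which overlaps Pltp on the opposite strand, differed by 0.14 (interval -0.14 to 0.42). Pde3a, a phosphodiesterase that degrades cAMP, was at 6.15 and 7.52 CPM in WT and 18.8 and 25.8 CPM in SmoM2 (edgeR adjusted p = 0.0350), with higher values still, 37.3 and 55.7 CPM, in the Het libraries.

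Kcnj15, an inward-rectifier potassium channel, had 5 and 7 counts in WT, or 0.466 and 0.762 CPM, and reached 5.83 and 5.32 CPM in SmoM2 (log2 3.17, SE 0.51, edgeR adjusted p = 0.0427). Slc39a8, an importer of zinc and manganese, was at 3.82 and 6.64 CPM in WT and 16.6 and 19.8 CPM in SmoM2. Syt11, a synaptotagmin of membrane traffic, and Bag2, a cochaperone of Hsp70, differed less, by 0.95 and 0.91. Of the 21 genes called higher, 10 had a WT mean under 10 CPM.

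**Figure D4:**
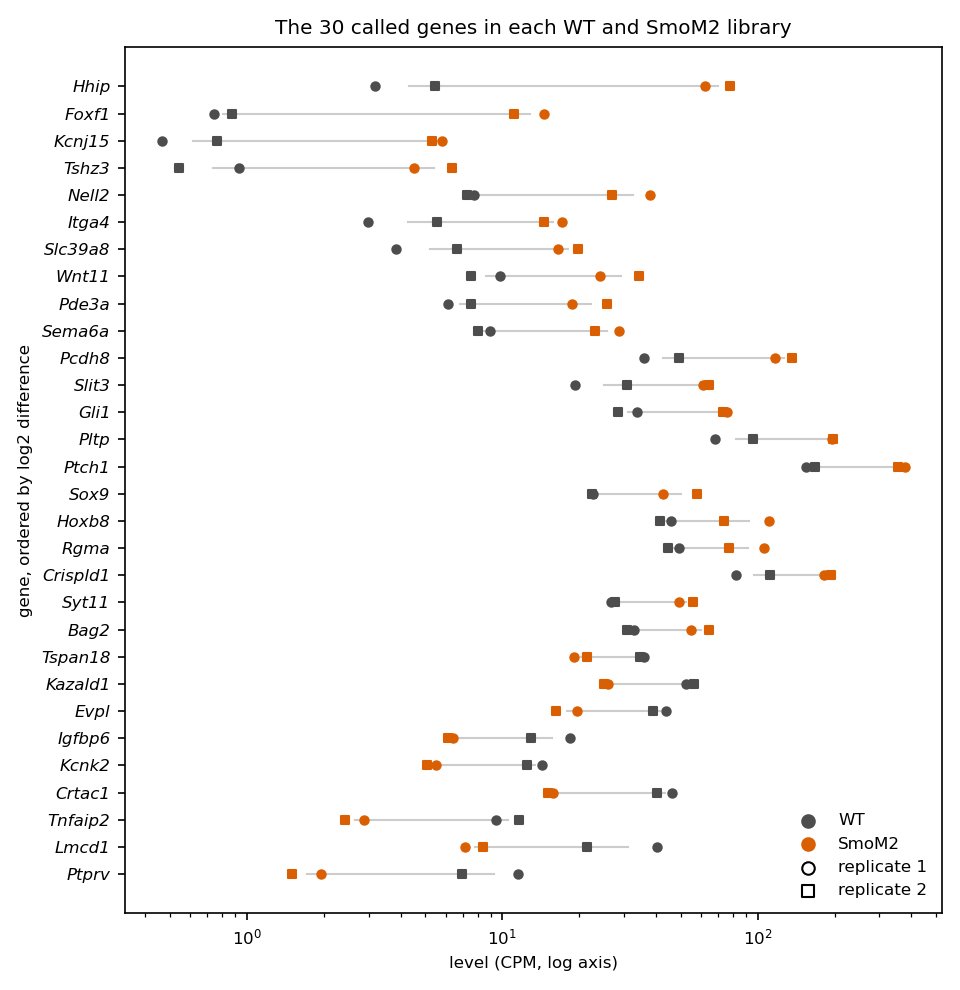
Level in CPM (log axis) of the 30 called genes in the 2 WT (grey) and 2 SmoM2 (orange) libraries, ordered by log2 difference, with lines joining the group means. In every row the libraries of the groups are apart, and the genes with the widest gaps start near 1 CPM (Foxf1, Kcnj15, Tshz3) or below 6 CPM (Hhip) in WT.

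The 9 genes called lower had smaller fold differences than the leading risers. Crtac1, a secreted matrix protein (chr19:42283035-42432966), had the smallest p among them, at 46.2 and 40.4 CPM in WT and 15.8 and 15.1 CPM in SmoM2. It was 2.79-fold lower (log2 -1.48, SE 0.17, edgeR adjusted p = 0.00784) and was at 52.7 and 62.0 CPM in the KO libraries. Without SmoM2 replicate 1, and without SmoM2 replicate 2, its edgeR adjusted p was 0.0524 and 0.0554. Ptprv was at 11.6 and 6.97 CPM in WT and 1.94 and 1.502 CPM in SmoM2, a 5.33-fold lower level (log2 -2.42, SE 0.41, edgeR adjusted p = 0.0427). RefSeq lists Ptprv as a transcribed pseudogene.

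Lmcd1, a LIM-domain cofactor of transcription, was at 40.5 and 21.6 CPM in WT and 7.16 and 8.44 CPM in SmoM2 (log2 -1.998, SE 0.29, edgeR adjusted p = 0.0328). Kazald1, a secreted protein with an IGF-binding type domain, was at 52.4 and 56.5 CPM in WT and 26.0 and 25.0 CPM in SmoM2 (log2 -1.10, edgeR adjusted p = 0.0350). Kazald1 was lower still in the other groups, at 14.2 and 14.2 CPM in the KO and 6.02 and 4.42 CPM in the Het libraries, while Lmcd1 was at 37.9 and 42.2 CPM in the KO libraries. Igfbp6, which binds IGF2 by preference, was at 18.46 and 13.0 CPM in WT and 6.44 and 6.13 CPM in SmoM2 (log2 -1.32, edgeR adjusted p = 0.0427), and at 44.3 and 39.0 CPM in KO. The SmoM2 replicates of these 3 genes were close to each other and below both WT replicates.

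Tnfaip2, a gene first known for its induction by TNF, was at 9.41 and 11.7 CPM in WT and 2.86 and 2.43 CPM in SmoM2, and at 64.2 and 85.6 CPM in the KO libraries. Evpl, which encodes the junction and envelope protein envoplakin, was at 43.7 and 39.1 CPM in WT and 19.6 and 16.2 CPM in SmoM2, and at 126 and 111 CPM in KO. Kcnk2, a mechanosensitive potassium channel, was at 14.4 and 12.5 CPM in WT and 5.52 and 5.09 CPM in SmoM2, and at 41.4 and 39.0 CPM in KO. The SmoM2 against WT log2 differences of these 3 genes were -1.98, -1.21 and -1.34, each with an edgeR adjusted p of 0.0427. Tspan18, a tetraspanin, fell by 0.80 on the log2 scale, the smallest difference among the 9. The KO and SmoM2 comparisons share the WT libraries, so their values are set side by side and not related to each other.

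The boundary of the calls was not sharp. The 5 genes with the smallest p above the threshold among those with higher values in SmoM2 were Ackr3, Nrxn3, Cers6, B3galt2 and Synpo2, with edgeR adjusted p from 0.0593 to 0.0765. Ackr3, a scavenging receptor for CXCL12, was at 51.9 and 59.8 CPM in WT and 92.9 and 91.8 CPM in SmoM2. On the lower side they were Mmp2, Timp3, Bcam, Mmp23 and Sp6, with edgeR adjusted p from 0.0557 to 0.0873. Mmp2, a matrix metalloproteinase, was at 326 and 391 CPM in WT and 179 and 197 CPM in SmoM2, and Timp3, an inhibitor of such proteinases, was at 71.1 and 51.6 CPM and 26.8 and 29.7 CPM. Sp6 shares nearly all its counts with the overlapping Gm11532 and is uncertain.

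The largest uncalled differences without overlap, among genes with a mean level of at least 3 log2 CPM, were of both kinds, some resting on 1 library and others present in both replicates. Slc15a2, a peptide transporter, was at 25.0 and 0.762 CPM in WT and 0.102 and 0.578 CPM in SmoM2, so its log2 difference of -5.25 came from WT replicate 1. Fbxo44 was at 1.31 and 0.762 CPM in WT and 1.33 and 19.4 CPM in SmoM2, so its value of 3.27 came from SmoM2 replicate 2. Pianp was at 47.3 and 47.3 CPM in WT and 25.9 and 4.04 CPM in SmoM2, and its value of -1.64 came mostly from SmoM2 replicate 2.

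Other genes of this kind were apart in both replicates without passing. Vldlr, a lipoprotein receptor that also binds reelin, was at 10.4 and 19.2 CPM in WT and 40.8 and 53.0 CPM in SmoM2 (log2 1.67, edgeR adjusted p = 0.0984). Hoxb9, a neighbour of Hoxb8 in the Hoxb cluster, was at 24.4 and 15.1 CPM in WT and 74.8 and 46.2 CPM in SmoM2 (log2 1.61, edgeR adjusted p = 0.0982). The other groups were not low in Hoxb9, at 43.6 and 89.3 CPM in the KO and 113 and 101 CPM in the Het libraries. Ttyh2 was at 5.97 and 10.7 CPM in WT and 20.7 and 24.8 CPM in SmoM2 (log2 1.46, edgeR adjusted p = 0.110), and Thbd, the thrombin receptor thrombomodulin, differed by 1.57 (edgeR adjusted p = 0.298).

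On the lower side, Ppp1r1b, a phosphatase inhibitor expressed in neurons that receive dopamine, was at 8.39 and 4.90 CPM in WT and 2.35 and 2.08 CPM in SmoM2 (log2 -1.59, edgeR adjusted p = 0.109). Its level in the KO libraries was 56.9 and 39.2 CPM. Pnmt, which makes adrenaline, and Adora2a, an adenosine receptor, differed by -1.47 and -1.41 at WT levels of at most 6.34 and 3.08 CPM (edgeR adjusted p = 0.437 and 0.286).

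For most tested genes the difference was bounded within 2-fold. Intervals were used for this, since a p above the threshold does not show that a gene is unchanged. For 10367 genes, 77% of those tested, the 95% interval of the log2 difference lay within -1 to 1, that is, within 2-fold either way. For 6843 genes (50.8%) it lay within 1.5-fold. The share within 2-fold was 97.7% in the upper tercile of genes by level and 39.2% in the lower tercile. The middle 90% of log2 differences ran from -0.58 to 0.52. At the median standard error a difference of 2.10-fold would have been needed for a call. At the median standard errors of the lower and upper terciles it was 4.44-fold and 1.71-fold. At such standard errors smaller changes could not be called at this depth and replication. Genes with a smaller standard error could be called below 2.10-fold, as Bag2 was at 1.88-fold.

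The identity genes of nephron progenitors were not called as changed. Of 23 tested, none was called in either direction by edgeR, by DESeq2 on 8 libraries or by limma voom. However, 7 had an unadjusted p under 0.05, against 7.70% of all tested genes. SmoM2 lay below WT without overlap in 9 and above WT in 4, against 18.4% and 17.4% of all tested genes. Of the 23, 18 had an interval within -1 to 1, and the median was -0.06. Six2 differed by 0.04 (interval -0.29 to 0.36), Eya1, a partner of Six2, by 0.11 (interval -0.22 to 0.43), and Sall1, a zinc-finger factor of the same cells, by 0.10 (interval -0.17 to 0.37). Cited1, a marker of the least committed progenitors, was at 173 and 123 CPM in WT and 107 and 85.4 CPM in SmoM2, without overlap but also without passing (log2 -0.62, edgeR adjusted p = 0.437). Gdnf, which the progenitors secrete to promote branching of the duct, was at 157 and 172 CPM in WT and 188 and 271 CPM in SmoM2 (edgeR adjusted p = 0.601). Without the filter on low counts edgeR called 4 of the 23, Cited1, Spock2, Meox1 and Gdnf, against 356 of all 18070 genes tested in that fit.

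Early nephron differentiation genes showed 1 call, Sox9, among 19 tested, where 0.223% of all tested genes were called. Of the 19, 5 had an unadjusted p under 0.05, Sox9 among them, against 7.70% of all tested genes. SmoM2 lay above WT without overlap in 5 and below WT in 4, against 17.4% and 18.4% of all tested genes. Bmp2, Wnt4, Lfng and Bmper were called as well by edgeR without the filter on low counts. Wnt4, which starts the conversion to epithelium, was at 203 and 268 CPM in WT and 103 and 200 CPM in SmoM2 (log2 -0.64, interval -1.39 to 0.11). Lhx1, an early nephron factor, was at 4.66 and 10.9 CPM and at 4.50 and 6.36 CPM, and Pax8 differed by 0.17 (interval -0.10 to 0.45). Only 7 of the 19 had an interval within -1 to 1, so larger changes in the other genes could not be bounded. The median of -0.03 was -0.53 without SmoM2 replicate 2 and 0.35 without WT replicate 2.

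None of 17 Notch pathway genes was called by edgeR, DESeq2 or limma voom, 3 had an unadjusted p under 0.05, and the median was 0.06. Lfng and Hes1 were called by edgeR without the filter on low counts. Lfng, a fringe enzyme that modifies Notch, was at 33.7 and 27.3 CPM in WT and 13.0 and 19.99 CPM in SmoM2 (log2 -0.90, edgeR adjusted p = 0.157), while Notch2 differed by -0.18 (interval -0.54 to 0.18). None of 18 other Fox factors was called by edgeR or limma voom, 3 had an unadjusted p under 0.05, and DESeq2 called 1 of them, Foxj1. Foxj1 and Foxd1 were called by edgeR without the filter on low counts. Foxj1, the master factor of motile cilia, was at 51.5 and 42.2 CPM in WT and 25.1 and 25.1 CPM in SmoM2 (log2 -0.90, edgeR adjusted p = 0.132). Foxc1 differed by 0.37 (interval 0.04 to 0.69) and Foxc2 by -0.28 (interval -0.60 to 0.03).

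Growth factor pathways gave few calls as well. None of 20 FGF and receptor tyrosine kinase genes was called by edgeR, DESeq2 or limma voom, and 4 had an unadjusted p under 0.05. Gdnf was called by edgeR without the filter on low counts. The FGF response genes Dusp6, Etv4 and Spry2 differed by 0.16, -0.08 and -0.03. Others differed more, Etv5 by 0.34 (interval 0.09 to 0.59) and Spry1 and Spry4 by -0.29 and -0.295. The receptor genes Fgfr3 and Fgfr4 differed by -0.89 and -0.81. None of 21 BMP genes was called by edgeR, DESeq2 or limma voom, and the median was 0.23. Of the 21, 6 had an unadjusted p under 0.05, against 7.70% of all tested genes. Bmp2, Id1, Bmpr1b and Bmp4 were called by edgeR without the filter on low counts. Bmp7, the BMP ligand made by the progenitors, was at 324 and 400 CPM in WT and 458 and 446 CPM in SmoM2 (log2 0.32, edgeR adjusted p = 0.694). Beside Wnt11, the Wnt response gene Axin2 was at 132 and 88.8 CPM in WT and 155 and 147 CPM in SmoM2 (log2 0.45, edgeR adjusted p = 0.561).

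None of 30 cell cycle genes was called by edgeR, DESeq2 or limma voom, 3 had an unadjusted p under 0.05, and 27 of the 30 had an interval within -1 to 1. Ccnd2, Cdkn1c and Myc were called by edgeR without the filter on low counts. The proliferation genes Mki67 and Top2a differed by -0.16 and -0.05. Ccnd2, a D-type cyclin, was at 33.0 and 80.7 CPM in WT and 109 and 143 CPM in SmoM2 (log2 1.15, edgeR adjusted p = 0.244), and Myc was at 109 and 79.7 CPM and at 154 and 134 CPM (log2 0.61, edgeR adjusted p = 0.220). Ccnd1, another D-type cyclin, overlapped between the groups.

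**Figure D5:**
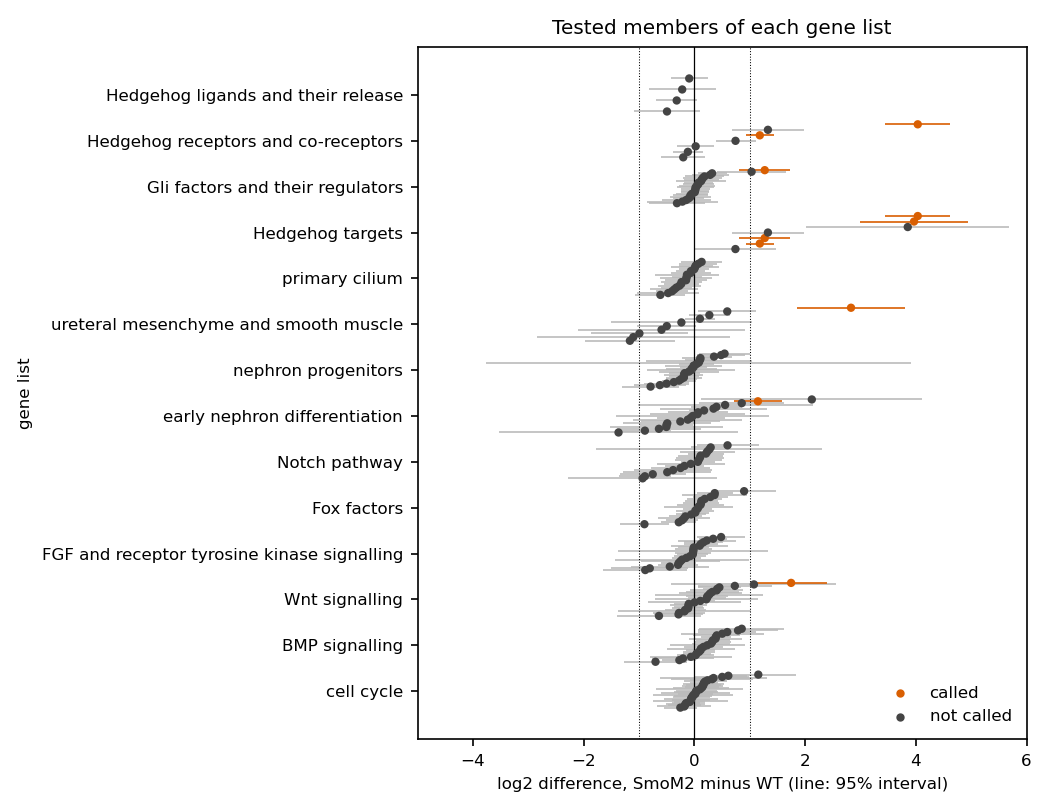
Each point is a tested member of the gene list named on the vertical axis, placed by its log2 difference, SmoM2 minus WT, with a line for its 95% interval. Called genes are orange and dotted lines mark -1 and 1. Orange points are in the Hedgehog, ureteral, differentiation and Wnt lists, and most other intervals cross 0 within the dotted lines.

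Markers of other cell types were given the same reading. Summed stromal markers were at 867 and 550 CPM in WT and 954 and 807 CPM in SmoM2, and none of 13 tested was called by edgeR, DESeq2 or limma voom, with 3 at an unadjusted p under 0.05. Foxd1, the stromal progenitor factor, was at 197 and 171 CPM in WT and 385 and 301 CPM in SmoM2 (log2 0.90, edgeR adjusted p = 0.322), while the stromal genes Meis1 and Pdgfrb differed by -0.39 and -0.24. Lum, a matrix proteoglycan of connective tissue, was at 0.839 and 0.980 CPM in WT and 5.11 and 3.005 CPM in SmoM2 (log2 2.15, edgeR adjusted p = 0.238), and Cspg4, a pericyte surface proteoglycan, was at 47.9 and 67.9 CPM and 38.3 and 30.4 CPM (log2 -0.75, edgeR adjusted p = 0.334). Without the filter on low counts edgeR called Lum, Cspg4 and Foxd1. Endothelial markers summed to between 24.8 and 33.3 CPM, podocyte and tubule markers to between 52.9 and 61.5 CPM, and neural markers to between 18.49 and 24.9 CPM. None of these markers was called by edgeR, DESeq2 or limma voom. Of 4 endothelial markers tested, 2 had an unadjusted p under 0.05, and SmoM2 lay above WT without overlap in 2 and below WT in 2. Their log2 differences ran from -1.08 to 0.69. Of 5 podocyte and tubule markers tested, 1 had such a p-value. Immune markers summed to 37.1 and 15.6 CPM in WT and 11.8 and 11.3 CPM in SmoM2, and erythroid markers to at most 10.1 CPM. The 5 immune markers tested had log2 differences from -1.39 to -0.76, and SmoM2 lay below WT without overlap in 3. Of these 5, 1 had an unadjusted p under 0.05 and none was called by edgeR, DESeq2 or limma voom. Without the filter on low counts edgeR called the immune marker Cd74. Fewer cells of a type and less RNA per cell cannot be told apart in such sums, and the part of these cells in the results was not tested.

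Immediate early and heat shock genes, which respond to tissue dissociation, summed to 4559 and 4898 CPM in WT and 5049 and 7159 CPM in SmoM2. None of the 17 was called by edgeR, DESeq2 or limma voom and 6 had an unadjusted p under 0.05. Fosb, Egr2, Fos and Egr1 were called by edgeR without the filter on low counts. Of the 17, 10 were higher in both SmoM2 libraries than in both WT libraries, against 17.4% of all tested genes, and their median log2 difference was 0.38. Fos, an immediate early transcription factor, was at 353 and 362 CPM in WT and 447 and 726 CPM in SmoM2. The part of this difference in the results above was not tested.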

How the data were processed

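Polyadenylated RNA of the sorted cells was sequenced, per the labels' protocols. The authors deposited raw read counts per gene and RPKM values for each library in a single table. The submitters' processing notes name STAR, Subread, featureCounts and mm10, while versions, annotation and strand setting are not given in the sources used here. RPKM values served only for levels per length and for the library totals they imply, of which the listed counts made up 81.1% to 83.3%.

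Counts of all 8 libraries were fitted with edgeR 4.0.16 (R 4.3.3; filterByExpr, TMM scaling, quasi-likelihood test, 1 mean per group, two-sided), and the SmoM2 minus WT contrast was adjusted by Benjamini-Hochberg over all tested genes, with a threshold of 0.05. The groups shared 4 residual degrees of freedom and a biological coefficient of variation of 13.5%. Standard errors and 95% intervals are those implied by the quasi-likelihood statistic. Alternatives used DESeq2 1.42.0, limma 3.58.1 (voom), other scalings and filters, a replicate block, and fits without 1 library.

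Named genes were drawn from Smo, all called genes, list members, the 5 nearest misses in each direction and the 5 largest uncalled differences in each direction among genes without overlap and with a mean of at least 3 log2 CPM. Overlapping genes are named as well. The comparison and its gene lists were chosen with earlier results of these data known, and lists carry counts and medians without a test. Values of 1 list member are not reported here. Gene positions are RefSeq's on GRCm38.p6, and exon overlaps come from GENCODE M21. No molecular identifiers are mentioned, so floors cover counting error only.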

Additional observations from a re-analysis of the deposited data

How the results depend on the processing

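Counts of called genes moved with the fit, while the number of genes with an interval within 2-fold stayed between 9158 and 11243 across the alternatives, against 10367. Calls in all, higher and lower were 8, 7 and 1 with the 4 WT and SmoM2 libraries alone, 82, 53 and 29 with DESeq2 on 8 libraries, 87, 65 and 22 with DESeq2 on 4 libraries, and 356, 205 and 151 without a filter on low counts. With limma voom 2 genes were called lower, of 28 in all. Fits without 1 library gave 8 to 81 calls, 5 to 46 higher and 1 to 35 lower, and where a group kept 1 library it was assumed to vary like the others. The cause of these shifts was not tested. All 30 genes were among those called by DESeq2 on 8 libraries and without the filter, and without the 2 Het libraries 24 of the 30 were among 29 called. Smo passed the threshold with DESeq2 on 8 and on 4 libraries (log2 0.75 and 0.74), without the filter (0.75) and with the replicate block on 4 libraries (0.74). It did not pass without the 2 Het libraries (log2 0.75, edgeR adjusted p = 0.0544). Fits without 1 library gave a Smo difference of 0.72 to 0.78. No called value changed sign. A replicate block raised the calls to 54 (36 higher, 18 lower) with 8 libraries and to 310 (193 higher, 117 lower) with 4 libraries, and all 30 genes were among them in both. The replicate numbers are shared without a label that ties them, and deviations of same-numbered WT and SmoM2 libraries correlated with r = 0.39 across genes; replicate 1 had the male and replicate 2 the female pattern in both groups. Depth limits low genes most, and at the median standard error of the lower tercile by level a call needed 4.44-fold.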
